A study of Arabidopsis thaliana with 12 samples.

Results

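TCP15 (AT1G69690, on chromosome 1) and AGL54 (AT5G27090, on chromosome 5) are Arabidopsis genes for transcription factors of development. They were taken as the probes whose platform annotation names exactly 1 gene, that gene being TCP15 or AGL54. Each gene had 1 such probe, so the members are 2 of 3439 probes, or 2 of the 692 with a single gene name. They were chosen by their aap6 against WT differences in earlier results of these arrays. Those differences are therefore given as a description. Where it is said whether the fit over all probes called a gene, that describes the fit and supports nothing.

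The arrays labelled aap6 carried RNA of an Arabidopsis mutant in the ecotype Wassilevskija that lacks AAP6, an importer of amino acids assigned by the labels to xylem parenchyma. The arrays labelled WT carried RNA of wild-type plants of the same ecotype. Each genotype had 6 arrays, numbered 1 to 6, and total RNA was the material. The tissue, plant age, growth conditions, kind of mutation and array type are not given in the sources used here. No probe was annotated with AAP6, so the genotype labels could not be set against that transcript.

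TCP proteins are plant-specific transcription factors that bind DNA through a domain of the basic helix-loop-helix kind, and they are known for setting the balance between cell division and cell expansion in growing organs. TCP15 belongs to class I of the family and acts with its close relative TCP14 in leaves, internodes and flowers, where it has been tied to gibberellin and cytokinin responses and to endoreduplication. AGL54, short for AGAMOUS-like 54, belongs to the type I MADS-box genes. Type I genes are known in Arabidopsis mainly from the female gametophyte and the endosperm, and most of them are transcribed at low levels elsewhere.

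Both probes were dim. The deposited signals are linear intensities bounded at 100, and the median probe of an array stood at 0.234 to 0.265 on aap6 arrays and at 0.142 to 0.164 on WT arrays. TCP15 gave 0.116, 0.115, 0.179, 0.138, 0.161 and 0.169 on aap6 arrays 1 to 6, against 0.190, 0.0763, 0.114, 0.131, 0.124 and 0.120 on WT arrays 1 to 6. Every aap6 value lay inside the range spanned by the WT arrays, whose highest and lowest values were those of arrays 1 and 2. The mean deposited intensity was 0.147 ± 0.0274 on aap6 arrays and 0.126 ± 0.0368 on WT arrays (SD, n = 6 each).

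AGL54 was dimmer still. Its deposited intensity was 0.0692, 0.0833, 0.0937, 0.0510, 0.0643 and 0.0560 on aap6 arrays 1 to 6, against 0.0246, 0.0665, 0.111, 0.0934, 0.0534 and 0.0510 on WT arrays 1 to 6. Here too the aap6 values lay inside the WT range, which ran from array 1 to array 3. The means were 0.0696 ± 0.0163 on aap6 arrays and 0.0667 ± 0.0313 on WT arrays (SD, n = 6 each). Neither probe was listed at exactly 0 on any array, although 236 to 320 probes per aap6 array and 334 to 550 per WT array were. RNA came from bulk samples, in which fewer cells of a type and less RNA per cell cannot be told apart.

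**Figure D1:**
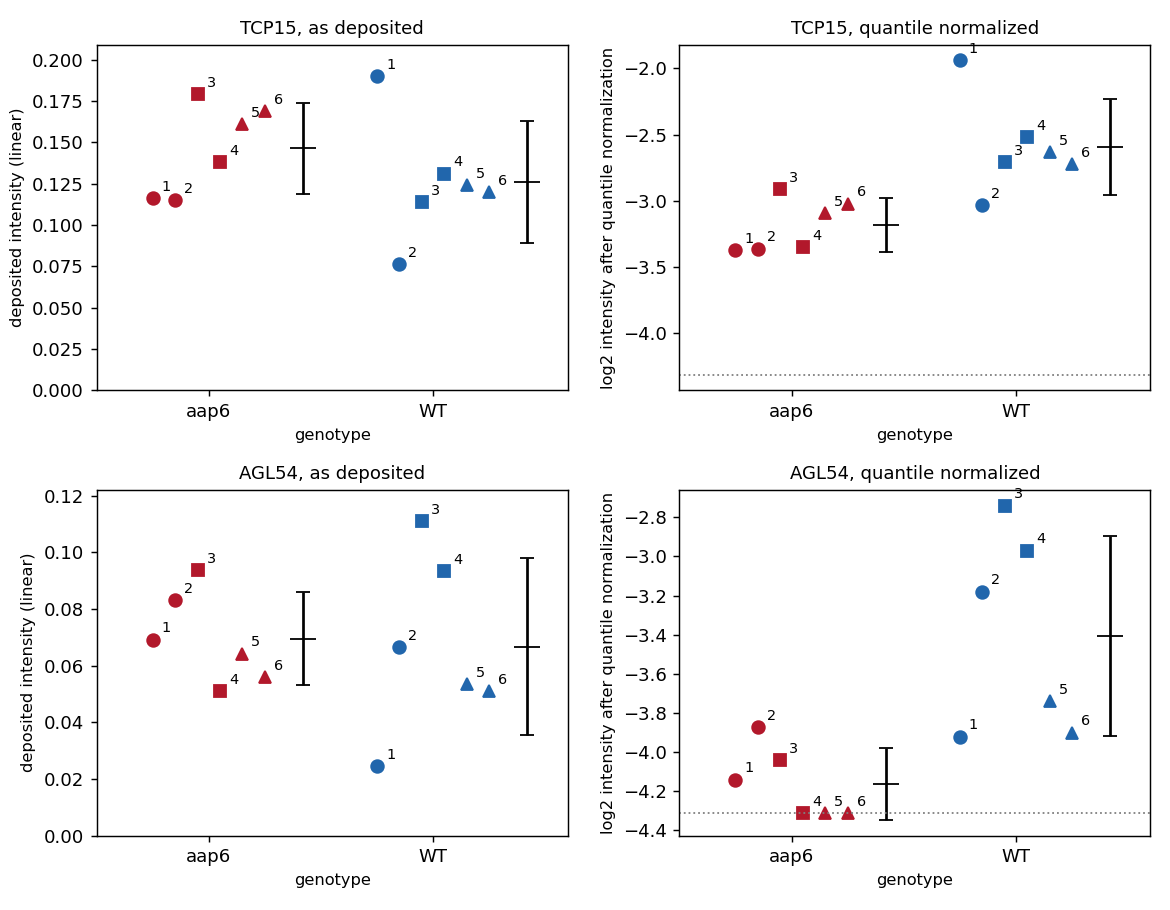
Signal of TCP15 (upper row) and AGL54 (lower row) by genotype, with deposited linear intensity on the left and log2 intensity after quantile normalization on the right. Each point is 1 array with its number, arrays averaged together share a symbol, the bar gives mean and SD of 6 arrays, and the dotted line is the floor at -4.31. As deposited, the aap6 points of both genes lie inside the WT range, and after normalization most aap6 points lie below the WT points.

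Set against the other probes of the same array, both genes ranked lower in aap6. The percentile of TCP15 ran from 28.5 to 36.8 on aap6 arrays, with a median of 31.1, and from 34.4 to 58.3 on WT arrays, with a median of 41.8. The percentile of AGL54 ran from 13.1 to 22.1 on aap6 arrays, with a median of 17.2, and from 21.6 to 40.2 on WT arrays, with a median of 27.7. The ranges of the genotypes overlapped at their ends for both genes. A percentile on an array does not depend on how arrays are scaled, but it moves when the other probes of that array move. A probe's brightness also depends on the probe itself, so these ranks are not an order of transcript abundance.

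The comparison of aap6 with WT asked how far each transcript differed once the arrays had been put on one scale. Arrays were quantile normalized, values under 0.0505 were raised to that floor, and log2 was taken. Arrays 1 and 2 of a genotype were alike, as were 3 and 4, and 5 and 6: deposited intensities correlated across probes at 0.993 to 0.998 inside those pairs, against 0.955 to 0.980 for the remaining arrays of the genotype. On the log2 normalized scale of the fit these ranges overlapped, at 0.912 to 0.970 and 0.892 to 0.947. The mean of a pair therefore served as 1 sample, giving n = 3 per genotype. No label ties the numbers to separate plants, and the spread behind each error may be purely technical.

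On this scale TCP15 stood at -3.37, -3.13 and -3.06 in the 3 averaged aap6 samples, against -2.48, -2.61 and -2.67 in the 3 averaged WT samples. The averaged samples of the genotypes did not overlap, while single arrays did, since WT array 2 (-3.03) lay below aap6 arrays 3 (-2.91) and 6 (-3.02). The mean log2 level was -3.18 ± 0.16 in aap6 and -2.59 ± 0.10 in WT (SD, n = 3 each). The log2 difference, aap6 minus WT, was -0.59 ± 0.17 (SE), or 1.51-fold lower.

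AGL54 had log2 levels of -4.01, -4.17 and -4.31 in the averaged aap6 samples, against -3.55, -2.85 and -3.82 in the averaged WT samples. All averaged aap6 samples were below all WT samples, and the WT samples were the more spread out. The share of probes as dim as AGL54 that separated so was not counted, and nothing is read from the separation. The means were -4.16 ± 0.15 in aap6 and -3.41 ± 0.50 in WT (SD, n = 3 each), a log2 difference of -0.76 ± 0.28 (SE of the fit without a filter on dim probes), or 1.69-fold lower. On aap6 arrays 4, 5 and 6 the normalized value was at the floor, so the aap6 level is only an upper bound there and the size of the difference depends on where that limit is set. Raising it to 0.0764 gave a log2 difference of -0.38, and lowering it to 0.0123 or dropping it gave -1.16. Leaving out WT arrays 3 and 4, the brightest WT arrays for this probe, brought it to -0.48.

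In the fit over all probes with limma, 229 of 2580 tested probes (8.88%) passed a Benjamini-Hochberg adjusted p of 0.05, 150 higher and 79 lower (3.06%) in aap6. With the 3 averaged pairs of numbers as a block 464 (18%) passed, 195 of them lower. TCP15 was tested and was among neither set of calls. It was called without the filter on dim probes, where 6.05% of all probes were, and with the 12 arrays as 12 samples, where 30.3% were, or 40.5% with the numbers as a block. It was among the 734 probes (28.4%) with an unadjusted p under 0.05. AGL54 was among the dimmest 25% of probes and was not tested. All averaged aap6 samples lay below all WT samples at 454 of the 2580 tested probes (17.6%), TCP15 among them. Nothing is read from these counts, because the same contrast served to choose the genes.

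The direction rested on the scaling of the arrays. Without normalization the log2 difference was 0.25 ± 0.15 for TCP15 and 0.011 ± 0.29 for AGL54 (SE, n = 3 each, without a filter on dim probes), and the averaged samples of the genotypes overlapped for both genes. Log2 values called as deposited, and those later median centred, also carried the floor of 0.0505. It raised AGL54 on WT array 1 from 0.0246 to a log2 of -4.31, so its WT mean as deposited is only an upper bound. A fit with neither normalization nor floor was not run. After median centring of the arrays the differences were -0.48 ± 0.17 and -0.72 ± 0.28 (SE, same fit). The median log2 difference of all tested probes was 0.50 as deposited, -0.23 after median centring and -0.03 after quantile normalization. Array by array, TCP15 was lower in aap6 at 6 of 6 numbers after quantile normalization and at 1 of 6 as deposited. AGL54 was lower at 6 of 6 and at 2 of 6. After quantile normalization AGL26 and AT4G03090, described below, were also lower at 6 of 6. The probe shared by AGL54, AGL53 and AGL93 was lower at 4 of 6, and AGL103 at 2 of 6. The share of all probes at 6 of 6 was not counted. As the same contrast served to choose the members, nothing is read from these tallies.

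Probes of like brightness show where the genes stand within that shift. All 3439 probes were divided into 4 equal bands by mean normalized level, TCP15 falling in the second from the bottom and AGL54 in the bottom one. As deposited, the 860 probes in the band of TCP15 had a median log2 difference of 0.83, with quartiles of 0.43 and 1.21, and 16.4% of them lay below TCP15. After quantile normalization the same band had a median of 0.02, with quartiles of -0.36 and 0.44, and 14.3% lay below TCP15. TCP15 thus stood below the lower quartile of its band on both scales, although its sign differed between them.

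For AGL54 the position within its band did depend on the scale. As deposited, the 859 probes of the bottom band had a median log2 difference of 0.14, with quartiles of 0.00 and 0.53, and 38.4% lay below AGL54. After quantile normalization the median was -0.05, with quartiles of -0.29 and 0.02, and 3.0% lay below AGL54. Many probes of that band sit at the floor, which draws their differences towards 0. After median centring the median of the band was -0.59, with quartiles of -0.73 and -0.2. On that scale 84.3% of its probes were lower in aap6 and 38.4% lay below AGL54, whose -0.72 was just above the lower quartile. Median centring shifts the differences of all probes alike, so this 38.4% repeats that of the deposited scale.

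**Figure D2:**
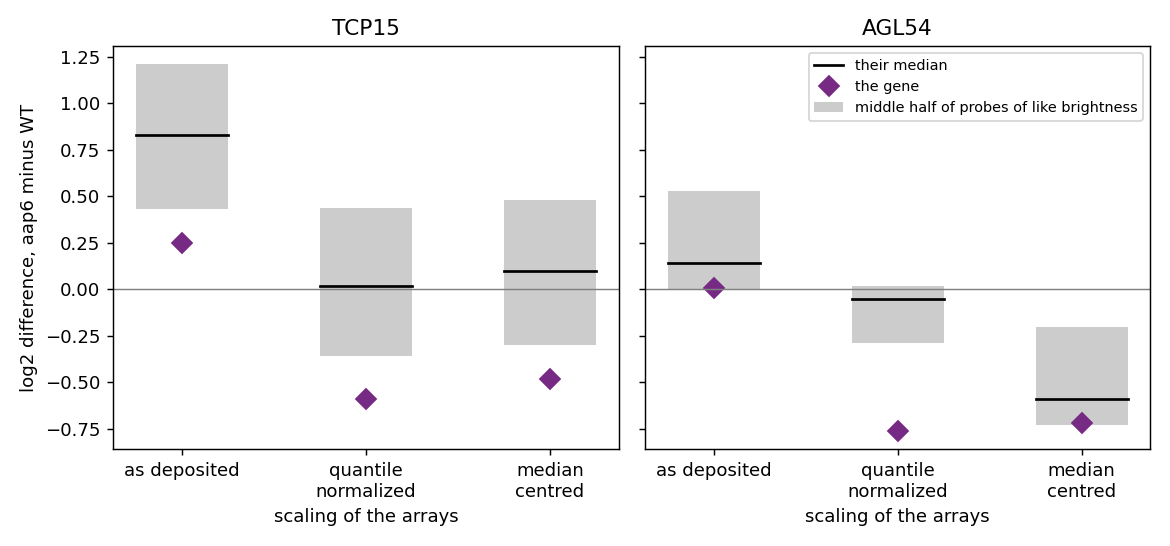
Log2 difference, aap6 minus WT, of TCP15 (left) and AGL54 (right) under 3 scalings of the arrays. Diamonds are the genes, grey boxes span the lower to the upper quartile of all probes in the same brightness band and black lines are the medians of that band. TCP15 lies below its grey box under each scaling, at 0.25, -0.59 and -0.48, and AGL54 lies below its box only after quantile normalization, at -0.76. Median centring shifts the differences of all probes alike. A gene's place against its box is then that of the deposited scale and is no further observation.

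Arrays that were averaged together did not always agree on these dim probes. TCP15 differed by 2.49-fold between WT arrays 1 and 2 in deposited intensity, and by 1.09 on the log2 scale after normalization, more than its difference between the genotypes. Of the tested probes, 90.2% differed less between those arrays, and their median absolute log2 difference was 0.24. In the other pairs TCP15 differed by 0.02, 0.44 and 0.06 in aap6 and by 0.19 and 0.09 in WT. Without WT array 1 the log2 difference of TCP15 was -0.41, and without WT array 2 it was -0.77.

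AGL54 went the other way on the same arrays. Its deposited intensity was 0.0246 on WT array 1 and 0.0665 on WT array 2, the first of them under the floor of 0.0505. After normalization, which put both above the floor, they differed by 0.74 on the log2 scale, and 81.9% of tested probes differed less. Across the 12 arrays the log2 levels of TCP15 and AGL54 had a Pearson r of 0.366 (Spearman 0.50). With each genotype's mean removed, Pearson r was -0.394 (Spearman -0.338). These values describe 12 arrays that share genotypes, resembling pairs and 1 normalization, and 3 AGL54 values at the floor enter them.

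Close relatives were few among the annotated probes. Of the 3439 probes, 1877 were not listed in the annotation or carried no gene name. A gene without an annotated probe is therefore not known to be absent from the array. Of 22 TCP genes in the gene table TCP15 alone had an annotated probe. Of 105 MADS-box genes, 3 had a probe of their own, namely AGL54, AGL26 and AGL103, and 4 others were found only on shared probes. None of the listed partners and process genes of TCP15, and none of the listed type I MADS-box partners, had an annotated probe. The search for other transcription factors went by words in the gene table's symbols and synonyms, so factors without such words there were passed over. Of those it matched, AT4G03090 (NDX, a nodulin homeobox protein known from the control of the antisense transcript at FLC) had a probe of its own outside the MADS-box family.

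AGL54 lies in a stretch of chromosome 5 rich in MADS-box genes. In the order of protein-coding genes AGL53 is 2 places away, AGL101 is 5, AGL93 is 15, AGL26 is 22 and AGL89 is 49. AAP6 lies on the same chromosome, 1790 places away. A second probe is annotated with AGL54, AGL53 and AGL93 together, and its signal cannot be assigned to any one of them. Whether such relatives also contribute to the probe named for AGL54 alone was not tested.

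The shared probe had deposited intensities of 0.193, 0.25, 0.305, 0.348, 0.285 and 0.327 on aap6 arrays 1 to 6, against 0.153, 0.266, 0.227, 0.226, 0.169 and 0.181 on WT arrays 1 to 6. Its log2 difference after quantile normalization was -0.18 ± 0.20 (SE, limma adjusted p = 0.605), and as deposited it was 0.48. The averaged samples of the genotypes overlapped on both scales. In deposited intensity the single-gene probe of AGL54 and the shared probe moved alike between arrays 1 and 2 of each genotype, and between WT arrays 3 and 4. They moved in opposite directions between aap6 arrays 3 and 4, aap6 arrays 5 and 6, and WT arrays 5 and 6.

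Of AGL26, AGL103 and AT4G03090, the 3 listed genes other than the members with a probe of their own, 0 passed in limma, where 8.88% of all tested probes did, and 0 had an unadjusted p under 0.05, where 28.4% did. With 3 probes these counts do not set the genes apart from other probes. AGL26 had a deposited mean of 0.479 ± 0.0892 in aap6 and 0.432 ± 0.0439 in WT (SD, n = 6 arrays each) and a log2 difference of -0.32 ± 0.21 (SE, limma adjusted p = 0.349). As deposited, its log2 difference was 0.14, so its sign also turned with the scaling. After median centring it was -0.59, with all 6 aap6 arrays below all WT arrays. In its brightness band, the top one, the median was then -0.62 and 87.0% of probes were lower in aap6. Of that band, 52.7% lay below AGL26. The share of all probes that separated so on that scale is not given here, and nothing is read from the separation. AGL103 had deposited means of 0.544 ± 0.136 in aap6 and 0.381 ± 0.178 in WT, with a log2 difference of 0.11 ± 0.30 (SE, limma adjusted p = 0.833), which was 0.60 as deposited and -0.13 after median centring. The log2 difference of AT4G03090 was -0.30 ± 0.17 (SE, limma adjusted p = 0.287), and 0.54 as deposited.

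**Figure D3:**
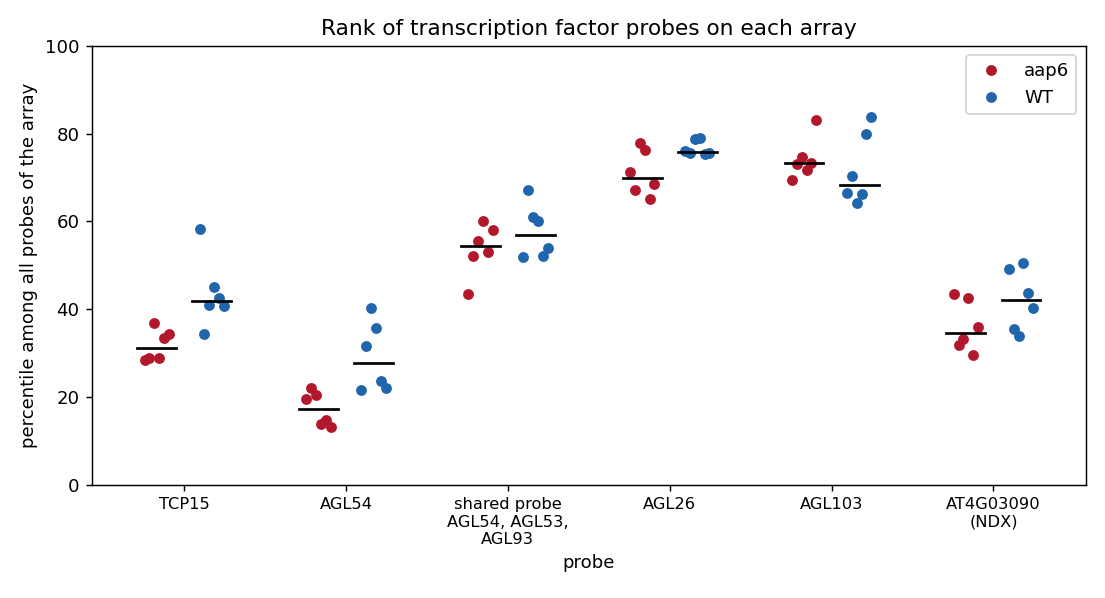
Percentile of the listed transcription factor probes, and of the probe shared by AGL54, AGL53 and AGL93, among all probes of an array. Points are 1 per array, with aap6 left of WT and a line at the median of 6 arrays. Medians lie in the dimmer part of the range for TCP15 (31.1 in aap6 and 41.8 in WT), AGL54 (17.2 and 27.7) and AT4G03090 (34.5 and 42.0). Single arrays reached 58.3 for TCP15 (WT array 1) and 50.4 for AT4G03090 (WT array 4). AGL26 and AGL103 lie above the 60th percentile on every array.

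The named genes whose pattern over the 12 arrays was most like that of TCP15 were sought among 493 other tested genes with a probe of their own. By Pearson r of log2 levels they were AT2G04540 (0.854), CSLA01 (0.848), AT4G13550 (0.821), AT4G19430 (0.821) and DI21 (0.801). CSLA01 encodes a cellulose synthase-like protein of the A group, which makes mannan polysaccharides, and DI21 was named as a drought-induced gene. All of them had a lower mean log2 level in aap6, between -0.98 for AT4G13550 and -0.38 for AT4G19430, a direction that likeness to TCP15 over both genotypes favours. AT4G13550 and DI21 passed (limma adjusted p = 0.0362 and 0.0457), where 8.88% of all tested probes did. That likeness favours such calls too, so nothing is read from them. As deposited, aap6 and WT means were 0.106 and 0.111 for AT4G13550, and 0.156 and 0.158 for DI21. They were 0.62 and 0.716 for AT2G04540, and 0.253 and 0.266 for CSLA01. The deposited mean of AT4G19430 was the higher in aap6, at 0.165 against 0.123. With each genotype's mean removed, the closest were AT4G19430 and AT3G54680 (both 0.706), AT5G36470 (0.699), AT5G64150 (0.685) and AT2G04540 (0.682). AT2G04540 and AT4G19430 were thus among the 5 closest by both measures.

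For AGL54 the search covered 494 genes. By log2 level the closest were AT3G04650 (0.880), AT5G47030 (0.874), AT3G12000 (0.863), CCL (0.847) and TPP2 (0.840), where TPP2 encodes the protease tripeptidyl peptidase II. Their log2 differences ran from -1.24 for AT3G04650 to -0.29 for CCL, a direction that likeness over both genotypes favours here too. Deposited means were higher in aap6 for AT3G12000 (0.32 against 0.294) and TPP2 (0.215 against 0.209). They were lower for AT3G04650 (0.478 against 0.949), AT5G47030 (0.119 against 0.153) and CCL (12.3 against 17.3). With genotype means removed the closest genes were AT1G22850 (0.902), AT4G38020 (0.856), AT1G05340 (0.832), AT5G47030 (0.794) and AT4G31530 (0.792). Their log2 differences between the genotypes went both ways, at 1.01, 0.19, 0.67, -1.05 and -0.05 in that order. Of these 5, AT1G22850 passed (limma adjusted p = 0.0372), where 8.88% of all tested probes did. These likenesses are descriptions over 12 arrays that share the sources named above.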

How the data were processed

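The deposited table holds 1 linear intensity per probe and array for 12 arrays, 6 per genotype. How the authors corrected and scaled them is not given in the sources used here; their centring is unknown. Of all values, 10.5% were exactly 0. Columns were assigned by sample identifier, and the number of arrays limits the precision. Names came from the platform annotation, updated to the TAIR10.1 gene table, which matched 690 of 692 probes with 1 gene. That table gave names and gene order, and its coordinates served only for the order.

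Intensities were quantile normalized, floored at 0.0505, the 10th percentile of deposited values above 0, and log2 was taken. Array pairs were averaged. The 25% of probes with the lowest mean were left out, and aap6 minus WT was fitted with limma 3.58.1 in R 4.3.3. The fit was tested on simulated data. Deviations from genotype means correlated at 0.427 to 0.554 between same-numbered arrays and at 0.403 to 0.506 between averaged pairs. This was taken as pairing by number, found in the data and not stated by the labels. The main fit did not include that pairing, so the SEs given and the count of 229 do not account for it. With the numbers of the averaged pairs as a block, 464 probes passed and the SE of TCP15 was 0.16 in place of 0.17.

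Members, lists and settings were chosen with earlier results of these data known. Named genes were the members, genes with their own probe from the lists of TCP, MADS-box, partner and other transcription factor genes, and the 5 genes most like each member by each measure. AT1G22850 was singled out after its values were seen. Scaling, floor, filter, variance model and replicate block were varied, and arrays or pairs were left out. The 2 settings that combine a scaling with no filter on dim probes were added after seeing the data.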

Additional observations from a re-analysis of the deposited data

How the results depend on the processing

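The log2 difference of TCP15 (-0.59) became 0.25 without normalization, with or without the filter on dim probes. That of AGL54 (-0.76) became 0.011 there, with the floor kept. After quantile normalization the AGL54 difference was -0.38 when the floor was the 25th percentile of the table. With the floor at the 2nd percentile of values above 0, or absent, it was -1.16. Leaving out arrays or pairs gave -0.77 to -0.41 for TCP15 and -0.96 to -0.48 for AGL54. Median centring moved neither difference by more than 1 SD. The filter, the variance model, 12 arrays as 12 samples and the replicate block cannot move a difference of means in this balanced design (-0.59 and -0.76), so they say nothing on its stability. TCP15 was called in 3 of the 31 settings that tested it, without the filter and with 12 arrays as 12 samples, with or without the block. AGL54 was tested in 4 settings and called in none of those 4.

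The count of 229 calls (150 higher, 79 lower) was 901 without normalization (881 and 20), 705 with arrays centred on their medians (200 and 505), 795 and 1153 with these scalings and no filter, 130 without a floor and 783 with 12 arrays as 12 samples. With the replicate block it was 464 over the averaged pairs and 1046 over 12 arrays. Leaving out arrays or pairs gave 57 to 212, and 57, 74, 89, 91 and 135 without aap6 arrays 3 and 4, aap6 arrays 1 and 2, WT arrays 3 and 4, aap6 arrays 5 and 6, and WT arrays 1 and 2. The cause of these shifts was not tested. Signals near the floor limit AGL54.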
